A study of Homo sapiens with 9 samples.

Results

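The genes described here are 10 genes of TGF-beta and activin signalling and of its SMAD feedback, taken by name as INHBA, PMEPA1, SMAD3, SMAD6, SMAD7, SKIL, TGFB1, TGFB2, TGFBI and ID1. All 10 were found, each as 1 row, in a table of 36810 genes. Their transcripts were measured in 143B, an established human osteosarcoma cell line, by bulk sequencing of polyadenylated RNA in 9 libraries. The control group was collected at 0 h, and the other groups had received 0.5 µM XD23, a compound the labels give as a code name, during 24 h or 48 h, with 3 libraries in each group. Neither a vehicle nor a time-matched untreated group is among the labels, so the compound and the time in culture cannot be told apart. Whether replicate libraries stem from separate cultures is not stated, and p-values measure only the spread between libraries, which may be technical.

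TGF-beta and activin are secreted dimers that bring together type II and type I receptor kinases at the cell surface. The type I receptor phosphorylates SMAD2 and SMAD3, which join SMAD4, enter the nucleus and bind short DNA elements beside other transcription factors, while the BMP branch uses SMAD1, SMAD5 and SMAD9. The response limits itself, because it induces the inhibitory SMADs SMAD6 and SMAD7, the corepressor SKIL and the membrane protein PMEPA1. In bone the pathway governs matrix production and the differentiation of osteoblasts.

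Depth was recovered from the values at 18341542 to 22901830 fragments per library, and levels are FPKM, fragments normalised for gene length and sequencing depth. Replicate 3 of the 24 h group stood apart on the second principal component (-24.7, against -6.96 to 9.06 for the other 8), and every call at 48 h against 24 h among the 10 genes was the same without it. The mesenchymal marker VIM stood at 297 to 389 FPKM and the osteoblast regulator RUNX2 at 4.06 to 6.61 FPKM, while 5 of 8 mesenchymal and osteoblast markers (COL1A1, COL1A2, SP7, ALPL and BGLAP) stayed under 1 FPKM in every library. Summed over the 5 epithelial markers found in the table, the level was 140 to 154 FPKM at 48 h, 185 to 193 FPKM in control and 188 to 214 FPKM at 24 h. Most of it was KRT18, with means of 123 FPKM at 48 h and 157 FPKM in control. KRT19 and CLDN4 were each under 1 FPKM, and CLDN4 had a higher mean at 48 h (0.794 FPKM) than in control (0.575 FPKM). Markers of blood cells (4 found of 6) and of endothelium (4 of 4) were each under 1 FPKM in every library, with sums of at most 0.18 and 0.809 FPKM. RUNX2 and SPARC among the osteoblast markers, and all 3 tested epithelial markers, were called lower at 48 h than in control. VIM, the other tested gene of the mesenchymal and osteoblast list, went the other way without a call (limma, log2 0.23 ± 0.09, adjusted p = 0.0935). It was at 347 to 374 FPKM at 48 h and 297 to 311 FPKM in control. That list, mostly VIM, summed to 379 to 407 FPKM at 48 h and 346 to 358 FPKM in control. The part of these shifts in the results was not tested. In bulk RNA, fewer expressing cells and less RNA per cell cannot be told apart.

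Promoter windows show the letters that SMAD proteins are known to bind. RefSeq windows (GRCh38.p14, 250 bases before to 50 after an annotated start) were found for all 10 genes, 19 windows in all because PMEPA1, SMAD3 and SMAD7 have several starts. Both strands were searched for GTCTAGAC, the palindrome to which SMAD3 and SMAD4 bind, and for CAGAC, the core of the SMAD element, which the palindrome does not contain. The palindrome stood in 1 of the 19 windows, that of SMAD6, against 0.202% of 35116 windows of all genes. CAGAC stood in 11 of 19 windows (57.9%), against 45.3% of all windows, so a match is common. It was in no window of ID1, TGFB1, TGFBI or SMAD6. Shown here are the windows of INHBA and PMEPA1, the genes with the highest fold changes at 48 h, and of the inhibitory SMADs, with matches in capitals and 5′ to 3′ on the strand of the gene. For PMEPA1 and SMAD7 the window with the most matches was taken.
INHBA, chr7:41703041-41703340, minus strand: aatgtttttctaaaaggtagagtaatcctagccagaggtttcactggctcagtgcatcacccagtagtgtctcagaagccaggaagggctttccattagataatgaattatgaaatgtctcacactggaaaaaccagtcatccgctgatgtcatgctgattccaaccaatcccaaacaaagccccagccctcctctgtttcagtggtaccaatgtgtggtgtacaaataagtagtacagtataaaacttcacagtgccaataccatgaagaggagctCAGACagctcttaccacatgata
PMEPA1, chr20:57709966-57710265, minus strand: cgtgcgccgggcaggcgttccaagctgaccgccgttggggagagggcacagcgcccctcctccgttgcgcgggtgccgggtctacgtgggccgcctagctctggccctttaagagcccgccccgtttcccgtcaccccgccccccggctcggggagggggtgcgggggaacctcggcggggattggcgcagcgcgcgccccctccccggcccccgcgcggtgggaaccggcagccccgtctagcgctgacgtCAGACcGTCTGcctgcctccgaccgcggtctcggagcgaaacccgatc
SMAD7, chr18:48950916-48951215, minus strand: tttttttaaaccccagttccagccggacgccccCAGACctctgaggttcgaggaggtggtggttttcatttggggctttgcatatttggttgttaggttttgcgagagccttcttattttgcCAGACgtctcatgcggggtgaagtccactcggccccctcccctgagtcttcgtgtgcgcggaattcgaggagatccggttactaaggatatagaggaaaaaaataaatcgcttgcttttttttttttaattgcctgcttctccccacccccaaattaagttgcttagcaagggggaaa
SMAD6, chr15:66701986-66702285, plus strand: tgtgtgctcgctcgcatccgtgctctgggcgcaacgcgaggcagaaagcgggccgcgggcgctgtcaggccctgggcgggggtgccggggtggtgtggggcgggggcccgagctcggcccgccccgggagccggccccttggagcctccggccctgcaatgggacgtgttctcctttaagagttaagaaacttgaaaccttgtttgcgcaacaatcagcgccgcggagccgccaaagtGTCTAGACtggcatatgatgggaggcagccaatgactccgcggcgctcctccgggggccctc
The palindrome in SMAD6 begins 12 bases before the annotated start. In PMEPA1 the element occurs on both strands 2 and 8 bases after the start, and in SMAD7 217 and 128 bases before it. A match describes letters in the window and does not show binding. Bases outside the windows were not searched, so a window without a match does not show that the gene lacks the element. The windows of INHBA and SMAD7 lie inside the gene spans given below, short of the upstream ends.

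After 48 h with XD23, 6 of the 8 genes that could be tested were higher than in control and 1 was lower. INHBA and PMEPA1 rose most, to 2.5 and 2.2 times their control means. TGFB1 and TGFBI rose to 1.32 and 1.31 times, SKIL to 1.2 times and SMAD3 to 1.15 times, while SMAD7 fell to 0.868 times its control mean. ID1 was not called, and SMAD6 and TGFB2 lay under the filter on low values. Genes were tested with limma on log2(FPKM + 1), with Benjamini-Hochberg adjustment over the 13657 genes that had at least 1 FPKM in at least 3 libraries, and were called at an adjusted p under 0.05. Of all genes tested, 28.5% were called at 48 h against control, 13.3% higher and 15.2% lower. Their median log2 fold change was -0.02, and that of the 8 genes was 0.31.

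At 24 h none of the 8 tested genes was called by limma, and only 0.00732% of all genes tested were, a single U6 small nuclear RNA pseudogene (RNU6-548P, named after its value was seen). At an unadjusted p under 0.05, 2 of the 8 genes (INHBA and SMAD7) and 1015 of all 13657 passed. Between 48 h and 24 h, 6 of the 8 genes were higher at 48 h and 1 was lower, where 16% of all genes tested were called higher and 16.3% lower (32.3% in all). The values of the 48 h and control libraries did not overlap for 7 of the 10 genes, and such separation was seen in 50.4% of all genes tested. At 24 h 1 of the 10 was apart from control, against 13.2% of all genes tested, and between 48 h and 24 h 8 of the 10 were apart, against 46.1%. TGFB2, 1 of these 8, had only 10 to 28 fragments per library. It was not tested, nor was SMAD6, while the shares cover tested genes only.

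**Figure D1:**
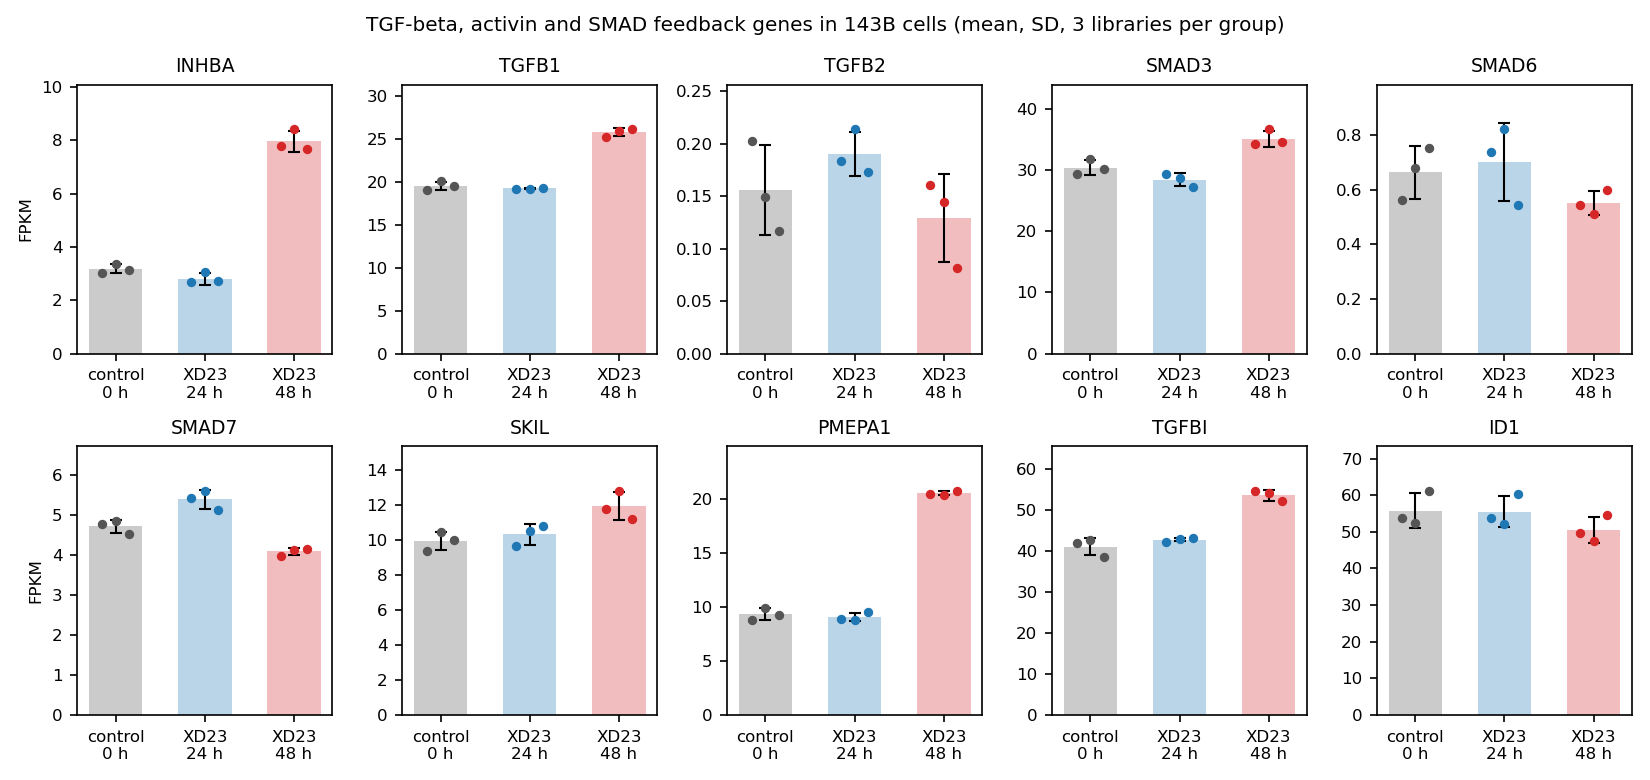
FPKM of the 10 genes in the 9 libraries (y axes start at 0 and differ between panels), with points for libraries, bars for the mean of 3 and error bars for the SD. INHBA and PMEPA1 stand at 7.97 and 20.6 FPKM at 48 h, and SMAD7 is highest at 24 h (5.39 FPKM) and lowest at 48 h (4.09 FPKM).

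Among the ligands, INHBA encodes the activin βA chain, whose dimer is activin A (ENSG00000122641, GRCh38 chromosome 7, 41667168 to 41705834, minus strand). It was at 3.04, 3.37 and 3.15 FPKM in the control libraries, at 2.67, 3.07 and 2.70 FPKM at 24 h, and at 7.80, 8.42 and 7.69 FPKM at 48 h. All 48 h libraries lay above all others, while those at 24 h overlapped control. The log2 fold change was 1.10 ± 0.06 at 48 h against control (standard error, limma, adjusted p = 2.39e-05) and, set against 24 h, 1.23 ± 0.06 (adjusted p = 1.03e-05). At 24 h against control it was -0.14 ± 0.06 (adjusted p = 0.666). These levels rested on 458 to 1597 fragments per library.

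TGFB1, the TGF-beta isoform made by most cells, was the most abundant ligand of the set (ENSG00000105329, chromosome 19, 41301587 to 41353911, minus strand). Its level was 19.1, 20.0 and 19.4 FPKM in control, 19.2, 19.2 and 19.3 FPKM at 24 h, and 25.2, 25.9 and 26.1 FPKM at 48 h. The 48 h libraries stood clear of both other groups, which overlapped each other. The 48 h group exceeded control by 0.38 ± 0.03 on the log2 scale (limma, adjusted p = 0.000134) and the 24 h group by 0.40 ± 0.03 (adjusted p = 8.25e-05), and the 24 h value against control was -0.02 ± 0.03 (adjusted p = 0.895). Exons of TGFB1 share 215 bases with HNRNPUL1 on the opposite strand, which stood at 34.9 to 39.8 FPKM over the 9 libraries, and no strand-specific counting is stated, so reads there cannot be told apart.

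TGFB2, another TGF-beta isoform (ENSG00000092969, chromosome 1, 218346235 to 218444619, plus strand), was barely detected. It was at 0.202, 0.149 and 0.117 FPKM in control, 0.183, 0.214 and 0.173 FPKM at 24 h, and 0.161, 0.144 and 0.0814 FPKM at 48 h, on 10 to 28 fragments per library. A fit without the filter gave a log2 difference of -0.03 ± 0.04 at 48 h against control (limma, adjusted p = 0.736). Its exons share 1371 bases with TGFB2-OT1 on the same strand, a transcript without a row of its own in the table. Of the other tested ligands and latency proteins (9 of the 15 in that list), 5 rose and 2 fell at 48 h (median log2 fold change 0.20). The 2 that fell, INHBB and INHBE, were under 1 FPKM in every 48 h library. They passed the filter only through control and 24 h, where they were higher. Among all genes tested, 13.3% were called higher and 15.2% lower. LTBP3, which tethers latent TGF-beta, rose by 0.48 ± 0.08 on the log2 scale (limma, adjusted p = 0.00215). LTBP2 rose by 0.41 ± 0.09, and FURIN, the protease that cleaves the TGF-beta precursor, by 0.37 ± 0.07. LTBP2 was no longer called when control replicate 1 (adjusted p = 0.0502) or 48 h replicate 2 (adjusted p = 0.0531) was left out. LTBP1 (0.26 ± 0.07) and LTBP4 (0.20 ± 0.06), also among the 5, lost their calls in 6 and 9 of 20 alternatives. INHBE (-0.29 ± 0.09), 1 of the 2 that fell, lost its call in 11 of 19.

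The activin βB chain and the activin-binding protein follistatin moved in the direction opposite to INHBA. INHBB was at 0.719, 0.422 and 0.645 FPKM at 48 h, against 1.28, 1.12 and 1.07 FPKM in control, and fell by 0.44 ± 0.10 on the log2 scale (limma, adjusted p = 0.0116). It was under 1 FPKM in every 48 h library and passed the filter only through control and 24 h, where it was higher. FST, which binds and neutralises activin, was at 1.63, 1.22 and 1.74 FPKM at 48 h, against 2.81, 3.22 and 2.79 FPKM in control. It fell by 0.64 ± 0.09 (limma, adjusted p = 0.00137), and its groups did not overlap. FSTL3, a related activin-binding protein, was at 3.40, 4.20 and 2.96 FPKM at 48 h and 4.49, 3.81 and 4.30 FPKM in control, overlapping groups that were not called (-0.21 ± 0.10, adjusted p = 0.16), and the value hung on single libraries. Without 48 h replicate 2 it was -0.31 and called (limma, adjusted p = 0.04), and without 48 h replicate 3 it was -0.12 (adjusted p = 0.424). BAMBI, a receptor-like membrane protein without a kinase that blocks the signal, rose by 0.49 ± 0.11, to 1.82, 1.88 and 1.54 FPKM at 48 h against 0.915, 1.12 and 0.841 FPKM in control. BAMBI was no longer called when 48 h replicate 2 was left out (limma, adjusted p = 0.0503).

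**Figure D2:**
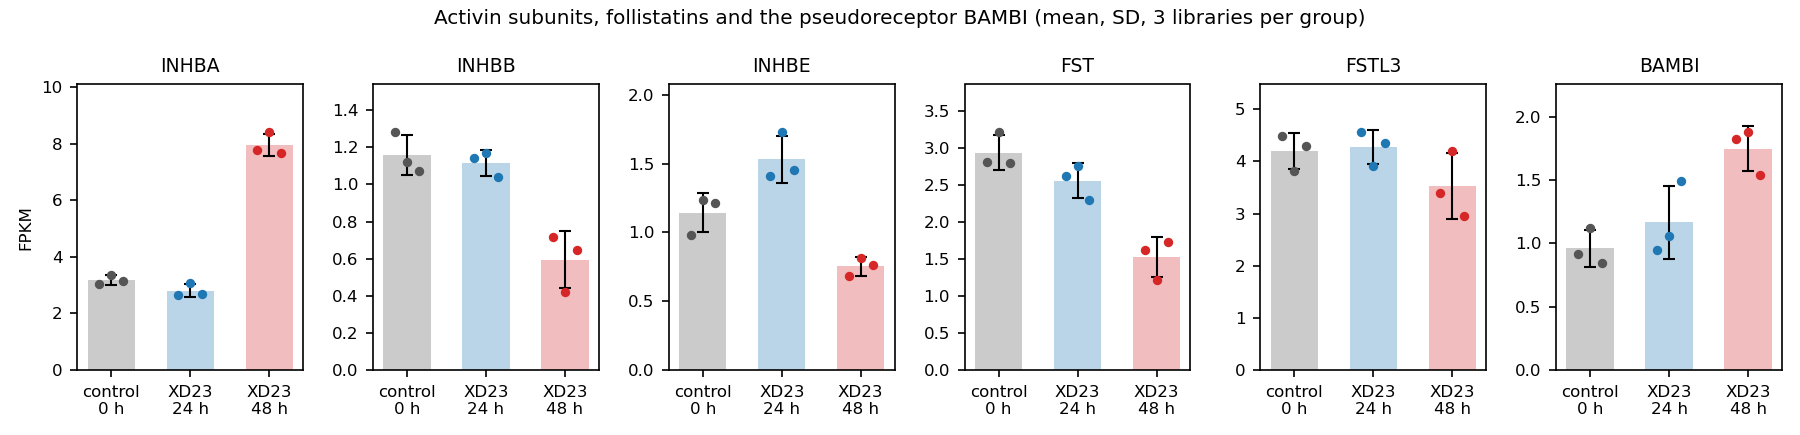
FPKM of activin subunit genes (INHBA, INHBB, INHBE), follistatin genes (FST, FSTL3) and BAMBI in the 9 libraries, with points for libraries, bars for means of 3 and error bars for the SD. At 48 h the INHBA mean is 7.97 FPKM and the FST mean 1.53 FPKM, where in control they are 3.19 and 2.94 FPKM.

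SMAD3, the receptor-activated SMAD of this set that binds DNA directly, lies on chromosome 15 (ENSG00000166949, 67063763 to 67195195, plus strand). Its level was 29.3, 31.8 and 30.2 FPKM in control, 29.4, 28.6 and 27.3 FPKM at 24 h, and 34.2, 36.7 and 34.5 FPKM at 48 h. Every 48 h library was above every other library, by a small margin over control. The log2 fold change was 0.20 ± 0.05 at 48 h against control (limma, adjusted p = 0.0128), 0.30 ± 0.05 against 24 h (adjusted p = 0.00178) and -0.09 ± 0.05 at 24 h against control (adjusted p = 0.695). Leaving out control replicate 1 (0.18, adjusted p = 0.0515) or 48 h replicate 2 (0.17, adjusted p = 0.0504) ended the call against control. SMAD3 exons share 182 bases with an antisense gene, AC087482.1, at 0.0782 to 0.404 FPKM. Among the other SMADs and partners, 1 of 8 tested genes rose and 0 fell (median log2 fold change 0.09). Over all genes tested, 13.3% were called higher and 15.2% lower. SMAD4, the common partner, rose by 0.25 ± 0.06 to 5.30 ± 0.202 FPKM at 48 h, against 4.29 ± 0.129 FPKM in control (SD, n = 3 each), and SMAD5 of the BMP branch stood at 13.2 ± 1.05 and 12.4 ± 0.567 FPKM without a call.

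SMAD7, the inhibitory SMAD that blocks type I receptors and recruits ubiquitin ligases to them, lies on chromosome 18 (ENSG00000101665, 48919853 to 48952052, minus strand). It was at 4.77, 4.84 and 4.53 FPKM in control, at 5.44, 5.61 and 5.13 FPKM at 24 h, and at 3.99, 4.14 and 4.16 FPKM at 48 h. The groups did not overlap at any time, with 24 h highest and 48 h lowest. Only the fall at 48 h passed the test, with log2 fold changes of -0.17 ± 0.05 against control (limma, adjusted p = 0.0262) and -0.33 ± 0.05 with 24 h as the baseline (adjusted p = 0.00101). The 24 h value against control was 0.16 ± 0.05 (limma, adjusted p = 0.514). The call against control was lost when any of 5 libraries was left out, with an adjusted p of 0.0827 (control 1), 0.0858 (control 2), 0.0858 (48 h 1), 0.0648 (48 h 2) or 0.0551 (48 h 3). It was also lost with no filter (0.0549), while the fall against 24 h was called in all 20 alternatives (adjusted p at most 0.00584).

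SMAD6, the inhibitory SMAD that acts mainly on the BMP branch, stood at less than 1 FPKM in every library (ENSG00000137834, chromosome 15, 66702228 to 66782848, plus strand). Its values were 0.561, 0.678 and 0.752 FPKM in control, 0.738, 0.821 and 0.544 FPKM at 24 h, and 0.544, 0.510 and 0.599 FPKM at 48 h. The groups overlapped throughout, on 98 to 152 fragments per library. Without the filter the log2 difference at 48 h against control was -0.10 ± 0.09 (limma, adjusted p = 0.619), and with a pseudocount of 0.1 as well, a choice made after seeing the data, it was -0.22 ± 0.20 (adjusted p = 0.602).

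PMEPA1, a membrane protein that holds SMAD2 and SMAD3 away from the receptor and directs it to degradation, lies on chromosome 20 (ENSG00000124225, 57648392 to 57711536, minus strand). The control libraries held 8.84, 9.92 and 9.29 FPKM, the 24 h libraries 8.94, 8.77 and 9.55 FPKM, and the 48 h libraries 20.5, 20.4 and 20.8 FPKM. At 48 h the values were close together and far above the overlapping ranges of the other groups. Its log2 fold change was 1.06 ± 0.05 at 48 h against control (limma, adjusted p = 1.03e-05), 1.10 ± 0.05 against 24 h (adjusted p = 7.22e-06) and -0.04 ± 0.05 at 24 h against control (adjusted p = 0.873). NKILA, a long noncoding RNA on the opposite strand whose exons share 343 bases with PMEPA1, stood at 2.70, 3.01 and 2.76 FPKM at 48 h, against 1.23, 1.39 and 1.35 FPKM in control. Reads in the shared bases cannot be told apart.

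SKIL encodes SnoN, a corepressor that SMAD signalling first degrades and then induces (ENSG00000136603, chromosome 3, 170357678 to 170396835, plus strand). It was at 9.41, 10.5 and 10.0 FPKM in control, 9.68, 10.6 and 10.8 FPKM at 24 h, and 11.8, 12.8 and 11.2 FPKM at 48 h. The 48 h libraries lay above the rest, but the lowest of them (11.2 FPKM) was close to the highest at 24 h (10.8 FPKM). Its log2 fold change was 0.24 ± 0.06 for 48 h against control (limma, adjusted p = 0.02), 0.19 ± 0.06 with 24 h as the baseline (adjusted p = 0.0454) and 0.05 ± 0.06 at 24 h against control (adjusted p = 0.865). That 24 h value was 0.02 without control replicate 1 and 0.10 without 24 h replicate 1. The call against control was lost when control 1 (0.0744), control 3 (0.0551) or 48 h library 2 (0.0721) was dropped, and with no filter (0.0543). The call against 24 h was lost in 12 of 20 alternatives, with an adjusted p of 0.0506 to 0.153, 7 of which drop 1 library. These were control 1 (0.0506), 2 (0.0536) and 3 (0.0666), 24 h libraries 1 (0.126) and 2 (0.077) and 48 h libraries 1 (0.09) and 2 (0.153).

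Of 12 other intracellular inhibitors and turnover factors tested, 5 rose and 1 fell (median log2 fold change 0.10). Over all genes tested, 13.3% were called higher and 15.2% lower. Besides BAMBI, the corepressor TGIF1 was 0.36 ± 0.06 higher on the log2 scale, at 13.9 ± 0.473 FPKM in the 48 h group against 10.6 ± 0.267 FPKM in control (SD, n = 3 each). SMURF1, a ubiquitin ligase that SMAD7 brings to the receptors, rose by 0.29 ± 0.05 to 10.3 ± 0.27 FPKM, against 8.27 ± 0.223 FPKM in control. STRAP, a partner of SMAD7 and the most abundant of the list, stood at 72.8 ± 3.4 FPKM at 48 h and 85.2 ± 4.6 FPKM in control (limma, log2 -0.22 ± 0.09, adjusted p = 0.0904). It was called lower without 24 h replicate 3 (adjusted p = 0.00739). PPM1A (0.14 ± 0.04), 1 of the 5 that rose, lost its call in 9 of 20 alternatives. NEDD4L (-0.17 ± 0.05), the 1 that fell, lost its call in 11 of 19.

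TGFBI, a secreted matrix protein named for its induction by TGF-beta (ENSG00000120708, chromosome 5, 136028895 to 136063818, plus strand), rose at 48 h. It stood at 41.8, 42.6 and 38.6 FPKM in control, at 42.2, 42.9 and 43.0 FPKM at 24 h, and at 54.6, 54.0 and 52.0 FPKM at 48 h. All 48 h libraries lay above the other 6, where control and 24 h overlapped. The log2 fold change was 0.38 ± 0.04 against control (limma, adjusted p = 0.00044), 0.32 ± 0.04 against 24 h (adjusted p = 0.000791) and 0.06 ± 0.04 at 24 h against control (adjusted p = 0.775). The 24 h value was 0.02 without control replicate 3 and 0.09 without control replicate 2.

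ID1, a DNA-binding inhibitor and a direct target of BMP signalling, had the highest mean FPKM of the 10 genes in control and at 24 h, and TGFBI had it at 48 h (ENSG00000125968, chromosome 20, 31605283 to 31606515, plus strand). Its level was 53.7, 52.5 and 61.2 FPKM in control, 53.8, 52.3 and 60.2 FPKM at 24 h, and 49.7, 47.6 and 54.5 FPKM at 48 h. All 3 groups overlapped. The log2 difference was -0.14 ± 0.08 at 48 h against control (limma, adjusted p = 0.219) and -0.13 ± 0.08 against 24 h (adjusted p = 0.236). With 1 library left out these ran from -0.19 to -0.07 (nearest 0 without control replicate 3) and from -0.18 to -0.07 (nearest 0 without 24 h replicate 3). Of the other SMAD1/5 targets, 1 of 6 tested rose and 0 fell (median log2 fold change 0.06). The shares of all genes tested were 13.3% higher and 15.2% lower. The homeobox gene MSX1 rose by 0.64 ± 0.06, to 19.2 ± 0.805 FPKM at 48 h against 11.9 ± 0.651 FPKM in control (SD, n = 3 each). ID3, a close relative of ID1, was at 47.7 ± 4.14 and 52.6 ± 1.21 FPKM and not called (-0.14 ± 0.06, adjusted p = 0.112), with a value that ran from -0.20 and a call without 48 h replicate 3 (limma, adjusted p = 0.0256) to -0.08 without 48 h replicate 2 (adjusted p = 0.327).

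**Figure D3:**
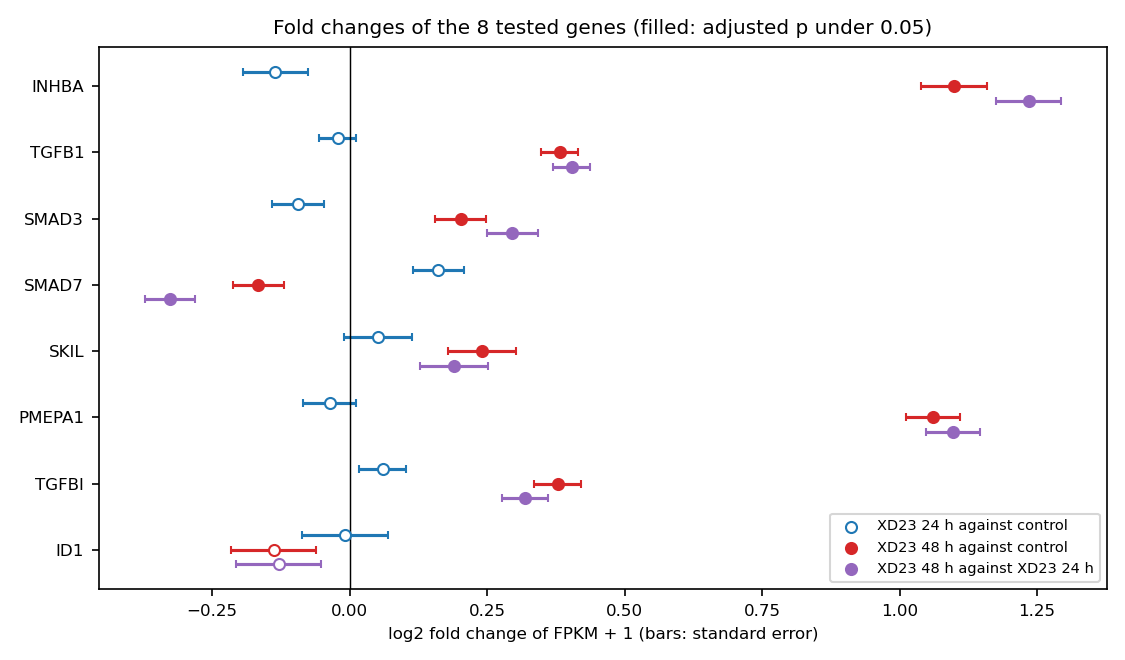
Log2 fold changes of FPKM + 1 (x axis) with standard errors for the 8 tested genes in 3 comparisons, where filled points have an adjusted p under 0.05 and open points do not. All points at 24 h against control are open, and SMAD7 lies on opposite sides of 0 at 24 h (0.16) and 48 h (-0.17).

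Genes widely used as SMAD2/3 targets moved both ways at 48 h, with 7 higher and 3 lower among 15 tested (median log2 fold change 0.29). Among all genes tested, 13.3% were called higher and 15.2% lower. ACTA2, 1 of the 7, reached 1 FPKM in no control or 24 h library, so it passed the filter only through the group where it was high. BHLHE40, a transcriptional repressor, was 1.27 ± 0.05 higher on the log2 scale, at 102 ± 3.12 FPKM, against 41.6 ± 1.17 FPKM in control (SD, n = 3 each). JUNB, a subunit of AP-1, rose by 0.86 ± 0.06 to 39.5 ± 1.26 FPKM, against 21.4 ± 1.59 FPKM in control. CCN2, a matricellular protein, fell by 0.89 ± 0.06 to 86.6 ± 2.29 FPKM, against 161 ± 7.88 FPKM in control. These 3 calls held in all 20 alternatives. Most of these genes also answer to other pathways, and the cause of their changes was not tested.

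Of 11 receptors tested, 5 rose and 0 fell at 48 h (median log2 fold change 0.17). The shares over all genes tested were 13.3% higher and 15.2% lower. BMPR2, a type II BMP receptor, was 0.36 ± 0.08 higher on the log2 scale, at 11.5 ± 0.936 FPKM, against 8.7 ± 0.257 FPKM in control (SD, n = 3 each), and was called in all 20 alternatives. The activin type II receptor ACVR2A (0.27 ± 0.07) and the type I receptor ACVR1 (0.25 ± 0.07) rose less. Each lost its call when any of 4 libraries was dropped. For ACVR2A these were control 3 (adjusted p = 0.0637) and 48 h libraries 1 (0.0558), 2 (0.0512) and 3 (0.0517), and for ACVR1 controls 2 (0.0943) and 3 (0.075) and 48 h libraries 2 (0.105) and 3 (0.0745). TGFBR1 (0.18 ± 0.05) and TGFBR3 (0.24 ± 0.08), also among the 5, lost their calls in 7 of 20 and 10 of 19 alternatives. Their adjusted p there reached 0.0967 and 0.149 (limma). TGFBR2, the TGF-beta type II receptor and the most abundant receptor of the list, was at 56.7 ± 2 FPKM at 48 h and 54.1 ± 0.87 FPKM in control (limma, 0.07 ± 0.04, adjusted p = 0.295).

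Secreted antagonists of the BMP branch also differed among themselves, and with FST and FSTL3 the list had 3 genes higher and 2 lower among 6 tested (median log2 fold change 0.02). Among all genes tested, 13.3% were called higher and 15.2% lower. NOG, which encodes noggin, stood at 2.27, 1.51 and 2.37 FPKM at 48 h, against 0.921, 0.732 and 1.08 FPKM in control (limma, 0.66 ± 0.18, adjusted p = 0.0243). Of the 9 libraries only those at 48 h, 1 control and 1 at 24 h reached 1 FPKM, so that NOG passed the filter mainly through the group where it was high. Its call was lost when control 1 (0.0633), control 2 (0.0761), 48 h library 1 (0.078) or 48 h library 3 (0.0814) was dropped. NBL1, another BMP antagonist, rose by 0.45 ± 0.08 to 13.9 ± 0.863 FPKM, against 9.94 ± 1.05 FPKM in control (SD, n = 3 each). GREM1, or gremlin, fell by 0.32 ± 0.04 to 6.27 ± 0.163 FPKM, against 8.06 ± 0.252 FPKM in control. TWSG1, which modulates BMP and was the most abundant of the list, rose by 0.25 ± 0.07. Its call was lost on dropping control 2 (0.0815) or 3 (0.09) or any 48 h library (0.0642, 0.0872 and 0.0669 for 1, 2 and 3). Among BMP and GDF ligands 1 of 4 tested genes rose and 0 fell (median log2 fold change -0.01). That gene was BMP2, an inducer of bone formation, at 4.19 ± 0.209 FPKM at 48 h against 2.99 ± 0.139 FPKM in control (limma, 0.38 ± 0.05, adjusted p = 0.00114), while BMP7, the most abundant, was at 9.29 ± 0.217 and 9.9 ± 0.331 FPKM.

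Over the 8 lists of other pathway genes, 71 of the 101 found in the table could be tested. At 48 h against control 28 of these (39.4%) were called higher and 8 (11.3%) lower, with a median log2 fold change of 0.14. The lists were chosen with earlier results of these data known, so these shares are a description. ACTA2 and NOG, among the 28, entered the test through their 48 h levels, and INHBB and INHBE, among the 8, through control and 24 h, since both were under 1 FPKM in every 48 h library. At 24 h limma called 0 of the 71, and 8 passed an unadjusted p under 0.05. Between 48 h and 24 h 29 (40.8%) were higher and 9 (12.7%) lower. Of all genes tested, 13.3% were called higher at 48 h against control and 15.2% lower. Between 48 h and 24 h these shares were 16% and 16.3%, and at 24 h against control 0.00732% were called.

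**Figure D4:**
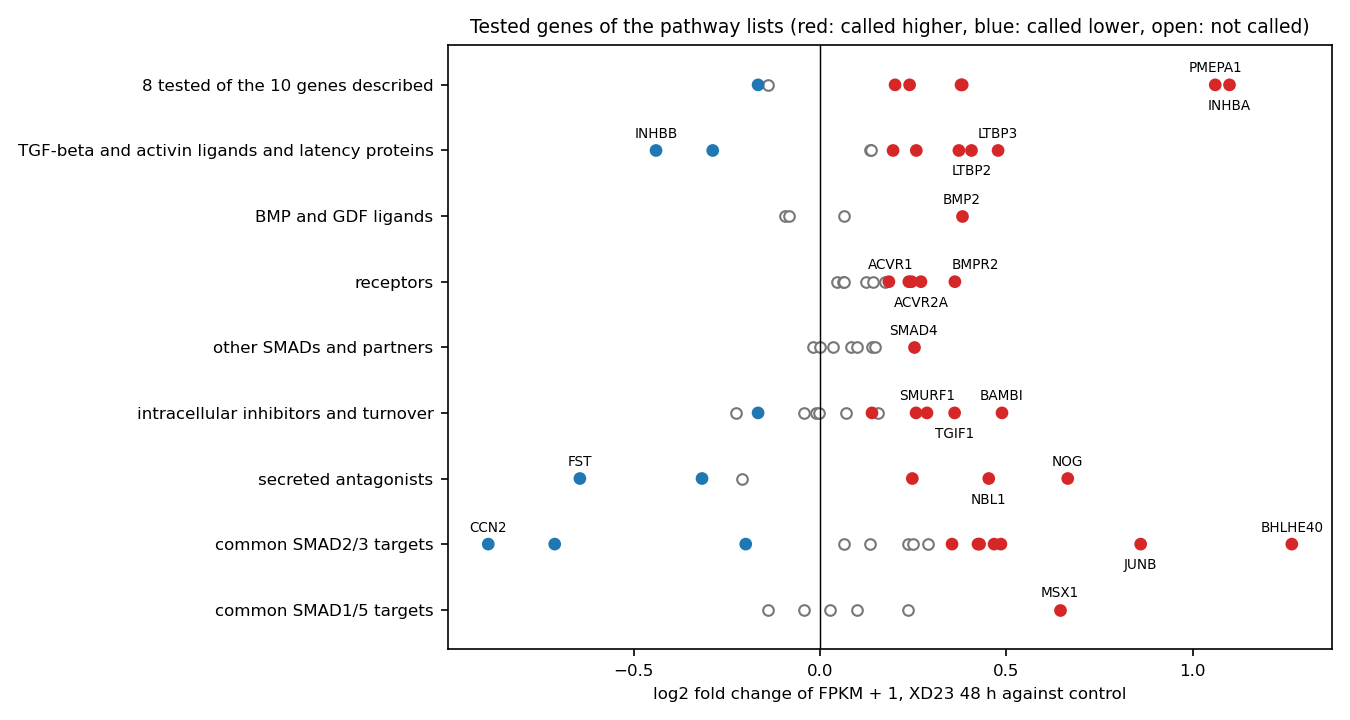
Log2 fold change of FPKM + 1 at 48 h against control (x axis) for every tested gene of the 10 described and of the 8 other pathway lists, 1 point per gene. Called genes are filled, with INHBA at 1.10 and PMEPA1 at 1.06 beyond every other point except that of BHLHE40 at 1.27, and CCN2 at -0.89 is the lowest.

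The genes whose levels followed those of INHBA and PMEPA1 most closely were sought among 10867 other protein-coding genes, by Pearson correlation of log2(FPKM + 1) over the 9 libraries. For INHBA these were KLF6 (r = 0.998), ICAM1 (0.995) and PFKFB3 (0.995). For PMEPA1 they were EGR1 (0.998), IRF2 (0.997) and TGFB1 (0.997), itself 1 of the 10 genes. The points share 3 groups, and a gene that stands apart at 48 h alone gives a high r, so the values are a description.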

How the data were processed

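Transcript levels were measured in 9 libraries of 143B cells, 3 in each of 3 groups. The authors deposited 1 table of FPKM, with a column per library. Per the submitters' processing notes the build was hg38 and the tools included featureCounts (Subread), HISAT2 and DESeq2. The annotation release, versions and settings were not given in the sources used here. Identifiers were paired with symbols for 36805 of 36810 genes, and 35585 were found in GENCODE release 29 (GRCh38). Library totals of 18341542 to 22901830 fragments were read from the values, which gave whole fragments in all 9 libraries, to within 0.001, for 20926 genes (58.8% of those in GENCODE). For genes outside that number, among them 8 of the 10 described, fragments rest on the smallest length giving whole numbers in all 9 libraries.

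With limma 3.58.1 (R 4.3.3), log2(FPKM + 1) of the 9 libraries was modelled by group (eBayes with a trend, 6 residual degrees of freedom). Fold changes on this scale understate the changes of low genes. Named are the 10 genes and, of each pathway list, up to 3 called genes with the largest change at 48 h and the most abundant. FSTL3, GREM1, INHBE, THBS1, ACTA2, ENG, TGFBR1, TGFBR3, PPM1A, NEDD4L, LTBP1 and LTBP4 were named besides, after their values were seen. A gene that the rule also names is not reported here. Genes and lists were chosen with earlier results of these data known.

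Alternatives changed the pseudocount (0.1 or 0.5), the filter (none, or 5 FPKM), the scaling (median of ratios, or quantiles), the variance model (array weights, or no trend) or the libraries fitted (only 2 groups, or 1 library fewer), or took replicate numbers as a block.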

Additional observations from a re-analysis of the deposited data

Results flagged for a closer look

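For 7 of the 8 tested genes the change against control differed between 48 h and 24 h, as tested by the direct contrast of the XD23 groups in the limma fit over all 13657 genes, of which 32.3% were called in it. The 48 h change minus the 24 h change, on the log2 scale, was 1.23 for INHBA, 1.10 for PMEPA1, 0.40 for TGFB1, 0.32 for TGFBI, 0.30 for SMAD3, 0.19 for SKIL and -0.33 for SMAD7. For SKIL the call in this contrast was lost in 12 of 20 alternatives. The SMAD7 libraries stood on opposite sides of control at the 2 times, and the 24 h side was not called. Both changes use the same 3 control libraries.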

How the results depend on the processing

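Of 480 values of the 8 tested genes under alternatives, 446 kept their direction and their side of the threshold, 26 lost a call, 2 gained one and 6 changed sign. INHBA, PMEPA1, TGFB1 and TGFBI kept their calls in both 48 h comparisons throughout. The sign changes concerned uncalled values at 24 h against control, PMEPA1 (-0.0727 to 0.00299 with 1 library left out, above 0 without control replicate 2), TGFB1 (0.000657 with median-of-ratios scaling) and ID1 (0.0146 with that scaling, -0.0690 to 0.0580 with 1 library left out, above 0 without control replicate 3 or 24 h replicate 1 or 2), and their cause was not tested. Of the 10 genes, 0 were called lower at 48 h against control without a filter, alone or with a pseudocount of 0.1 (added after seeing the data), because SMAD7 lost its call when 36810 genes were tested. With the replicate block 2 were called lower, ID1 beside SMAD7, at 48 h against both control and 24 h (limma, adjusted p of ID1 0.0178 and 0.0197). Leaving out 1 library gave 4 to 6 genes higher and 0 to 1 lower at 48 h against control, and 5 to 6 higher and 1 lower against 24 h. Over all genes tested the calls at 48 h against control were 3891, and 2551 to 5136 with 1 library left out, lowest without 48 h replicate 2. Of the other pathway genes 36 were called at 48 h against control, and 24 to 40 with 1 library left out, again lowest without 48 h replicate 2. Against 24 h, 38 other pathway genes were called, and 23 to 37 with 1 library left out, lowest without the same library. At 24 h against control, where 1 gene was called, 3 were without a filter, 4 with quantile normalization, 0 without a trend, 46 with array weights, 0 in the fit to only the groups compared, 0 with the replicate block, 4 without a filter and with a pseudocount of 0.1, and 0 to 2 with 1 library left out; with array weights 2 other pathway genes were called. Same-numbered libraries deviated together with r of -0.057 to 0.239, 4 of 9 correlated best with their own number, and the numbers were not taken to pair libraries. A filter at 5 FPKM left no value for INHBB, BMP2, ACVR2A, ACVR1, TGFBR3, BAMBI, NEDD4L, NOG, FST, FSTL3, INHBE or ACTA2. ACTA2 also had no value when any 48 h library was left out, so only 16 alternatives could be run for it. Median-of-ratios scaling moved 48 h against control by 0.03 on the log2 scale. Depth limits TGFB2 (10 to 28 fragments) and SMAD6 (98 to 152) most.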

Other observations

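SMAD7 was not alone in lying above control at 24 h and below it at 48 h. Of the other pathway genes, THBS1, a matricellular protein that activates latent TGF-beta, was at 7.79, 7.21 and 7.08 FPKM in control, 8.51, 8.95 and 7.89 FPKM at 24 h, and 3.93, 4.25 and 4.14 FPKM at 48 h. INHBE, an activin subunit gene, was at 0.980, 1.23 and 1.22 FPKM in control, 1.41, 1.73 and 1.45 FPKM at 24 h, and 0.684, 0.817 and 0.760 FPKM at 48 h. Endoglin (ENG), a TGF-beta co-receptor, was at 6.20, 6.20 and 6.20 FPKM in control, 7.03, 7.37 and 7.33 FPKM at 24 h, and 6.26, 6.39 and 6.66 FPKM at 48 h, so that its 48 h values stayed on the upper side. These 3 genes were chosen after their values were seen, and none of them was called at 24 h against control.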
